A study of Mus musculus with 9 samples.

Results

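The genes described here encode chromatin remodellers and histone methylation enzymes measured in the ribosome-associated RNA of parvalbumin interneurons (PV INs). They were chosen by symbol: protein-coding genes on autosomes or X that belong to the Chd, Smarc, Arid, Kmt2, Setd or Kdm families, together with Ash1l, Ehmt1, Ehmt2, Nsd1, Ezh1, Ezh2, Ankrd11 and Ahdc1. A gene was kept when it reached 1 CPM (read counts scaled to library size) in at least 1 sample, which left 73 of 74 genes, among 15069 genes tested in all. Arid3c was left out with a highest level of 0.164 CPM. The 73 genes comprise 10 Chd, 13 Smarc, 9 Arid, 5 Kmt2, 11 Setd and 17 Kdm genes and the 8 genes named singly.

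All mice were PV-Cre; Rpl22HA, so an HA tag sits on the ribosomal protein Rpl22 in cells in which the Pvalb promoter has driven Cre. Lentivirus was injected into the dentate gyrus (DG) of 2-month-old mice, and hippocampal CA3/CA2 was collected 2 weeks later. The virus carried a non-target shRNA in the control group (shNT, 5 samples) and an shRNA against Ablim3 in the other group (shRNA, 4 samples). Per the study's methods, each sample pooled tissue of 6 mice of both sexes, so a sample is a pool and not a mouse, and ribosomes were pulled down with anti-HA beads. The counts of shNT 1 (3 of Xist) and shNT 5 (0 to 4 of each of 4 Y-linked genes) go against a pool of both sexes, and results for X-linked genes are given with and without these samples. The comparison asks which ribosome-associated RNAs of PV INs differ when Ablim3, described by the study as a brake on mossy fiber inputs to these cells, is lowered in the DG.

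Histone methylation is written by SET-domain methyltransferases and removed by demethylases, and the residue decides what the mark accompanies. Methylation of H3K4 marks active promoters and enhancers, H3K36 methylation marks transcribed gene bodies, and H3K9 and H3K27 methylation mark repressed chromatin. Remodellers of the CHD, SWI/SNF and ISWI families use ATP to move or evict nucleosomes. Many of these genes are known from neurodevelopmental disorders in which 1 copy is lost.

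Reads counted on genes ranged from 19680352 to 34578837 in shNT samples and from 18281719 to 30421093 in shRNA samples. Ablim3 itself was at 12.1 to 22.6 CPM in shNT samples and 13.7 to 21.7 CPM in shRNA samples, and it is no direct check of the labels, because the shRNA was delivered to DG cells and the pulldown was aimed at ribosomes of PV INs in CA3/CA2. Markers of other cells were present in both groups and none of the markers was at 0 counts. Relative to the shNT mean, the mean log2 level of 12 astrocyte markers was -0.22 to 0.42 in shNT samples and 0.33 to 2.54 in shRNA samples, with shRNA 4 at the top. The 8 DG granule cell markers ran from -0.63 to 0.48 and from 0.61 to 1.05, the 10 CA3 and CA2 pyramidal neuron markers from -0.60 to 0.32 and from 0.49 to 0.83, and the 7 oligodendrocyte precursor markers from -0.31 to 0.31 and from 0.65 to 1.00. By the test described with the results, 4 of the 7 precursor, 2 of the 10 pyramidal, 1 of the 8 granule cell and 0 of the 12 astrocyte markers were called higher, with median log2 changes of 1.01, 0.73, 0.77 and 1.38. The 12 PV IN markers, among them Pvalb, Gad1 and Kcnc1, all had a negative fold change (median log2 -0.35, 0 called lower), with levels from -0.45 to 0.16 in shNT samples and from -1.13 to -0.02 in shRNA samples. The share of uniquely aligned reads outside exons was 9.77% to 18.6% in shNT and 12.4% to 27.2% in shRNA samples. The 10 oligodendrocyte markers ran from -0.46 to 0.85 in shNT and from 0.39 to 1.14 in shRNA samples, 9 microglial markers from -0.64 to 0.65 and from 0.10 to 0.28, 9 endothelial markers from -0.73 to 0.69 and from -1.37 to 2.22, and 7 nuclear-retained RNAs such as Malat1 from -0.77 to 1.57 and from 0.12 to 2.25. The microglial markers of the shRNA samples lay within the shNT range. The pyramidal, granule cell and precursor marker levels did not overlap between groups. Astrocyte and endothelial markers were highest, and PV IN markers lowest, in shRNA 4. Nuclear-retained RNAs were highest in shRNA 4 (2.25), shRNA 1 (1.59) and shNT 2 (1.57), and oligodendrocyte markers overlapped through shNT 2 (0.85). The part of the marker values in the results that follow was not tested beyond the fits named beside them. In pooled tissue, fewer cells of a type and less RNA per cell cannot be told apart.

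In control samples the genes covered a wide range of levels per length. The length used joins all annotated exons of a gene, so it can exceed the length of any single transcript. Per kb of exon, Smarcd1, an accessory subunit of the SWI/SNF complex, was at 39.9 ± 4.30 CPM per kb (SD, n = 5). Ankrd11, an ankyrin repeat regulator that binds chromatin, was at 38.0 ± 33.0 CPM per kb and Smarcc2, a SWI/SNF scaffold subunit, at 35.9 ± 11.4 CPM per kb. These 3 levels did not differ beyond their spread. Smarca2, a SWI/SNF ATPase, followed at 26.3 ± 7.30 CPM per kb, beside Setd3, an actin histidine methyltransferase, at 25.3 ± 2.82 CPM per kb. The lowest were Ezh2, the Polycomb methyltransferase best known from dividing cells, at 0.240 ± 0.200 CPM per kb, and the ARID DNA-binding protein Arid3b at 0.335 ± 0.0900 CPM per kb. The plot of control levels shows that SWI/SNF subunits take 5 of the 8 highest places and that Kdm genes lie mostly in its middle and lower part.

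**Figure D1:**
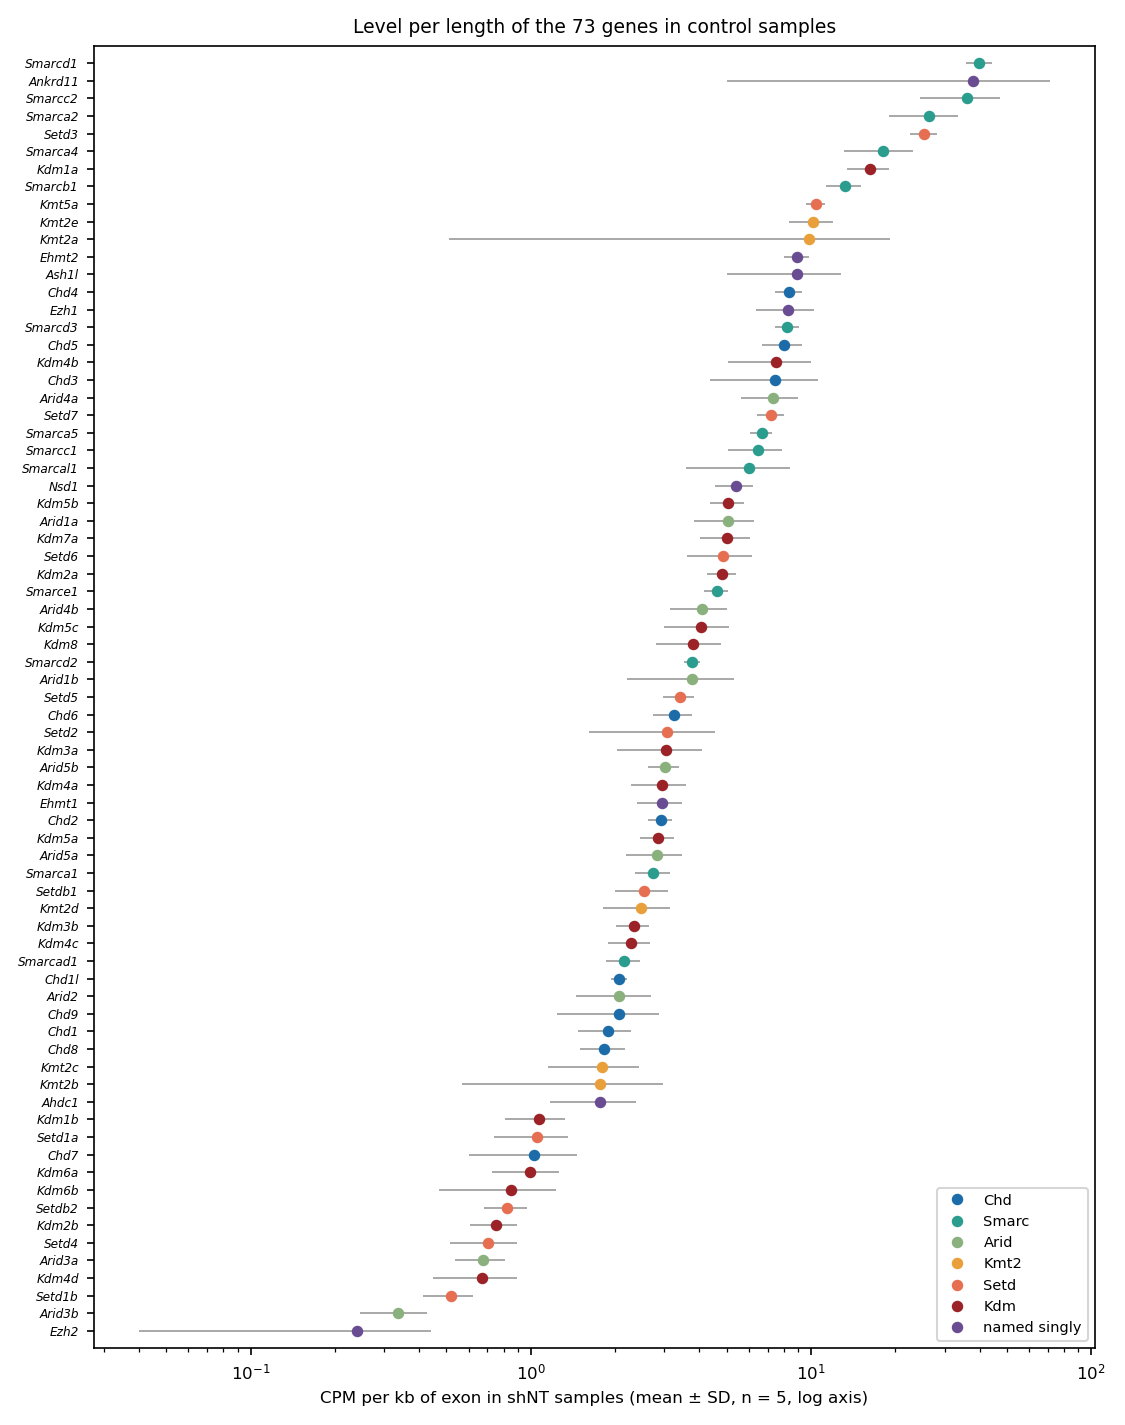
Mean level of each of the 73 genes in shNT samples, in CPM per kb of exon on a log axis, with bars of 1 SD over 5 samples and colours for families; the lower bars of Ankrd11 and Kmt2a reach far down because their shNT samples differ widely. Smarcd1 at 39.9 and Ezh2 at 0.240 CPM per kb are the ends of the range.

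Most of the 73 genes had higher levels in shRNA samples, and 7 of them passed the test. These were the histone demethylases Kdm5b, Kdm4c, Kdm6a and Kdm5a, the H3K9 methyltransferase Setdb1, the SWI/SNF-like remodeller Smarcad1 and the AT-hook protein Ahdc1. The test was edgeR's quasi-likelihood test on the counts of all 15069 genes, with a gene called at a Benjamini-Hochberg FDR under 0.05 and at least 1.5-fold. The 7 genes are 9.59% of the 73, where 1.74% of all genes tested were called higher. None of the 73 was called lower, where 0.0133% of all genes were (2 genes), and none had an unadjusted p under 0.05 in that direction, against 13.4% of all genes. An unadjusted p under 0.05 in the higher direction was found for 41 of the 73 genes (56.2%, against 20.7% of all genes). The fold change was positive for 62 of the 73 genes (84.9%, against 57.9% of all genes), and its median was 0.48 on the log2 scale against 0.11 over all genes.

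The levels of 19 of the 73 genes (26.0%) did not overlap between groups with shRNA higher, against 8.97% of all genes, and 0 did not overlap with shRNA lower, against 6.68%. A further 20 genes were past 1.5-fold with an FDR between 0.05 and 0.1, against 10.9% of all genes in that band. Other tests on the same counts called more genes: edgeR's likelihood ratio test called 25 of the 73 higher, against 11.2% of all genes, and DESeq2 called 21 of the 73, against 10.1%. limma voom with sample quality weights called 29 of the 73 higher, against 15.3%. None of these called any of the 73 lower, where they called 3.60%, 5.60% and 4.10% of all genes lower. The calls of the quasi-likelihood test sat close to its threshold and depended on single samples. Leaving out shNT 3, shNT 4, shNT 5, shRNA 1 or shRNA 3, each alone, left no gene of the whole table called, and leaving out shRNA 4 left 4 of the 7 genes called (Kdm5b, Kdm4c, Setdb1 and Ahdc1). With shNT 1 left out, 20 of the 73 genes were called higher, and with shNT 2 left out 12. Over the whole table, both of these fits also called more genes higher than the 262 called with all samples. Without shNT 1 that number was 1007, so the rise was not limited to the 73 genes.

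**Figure D2:**
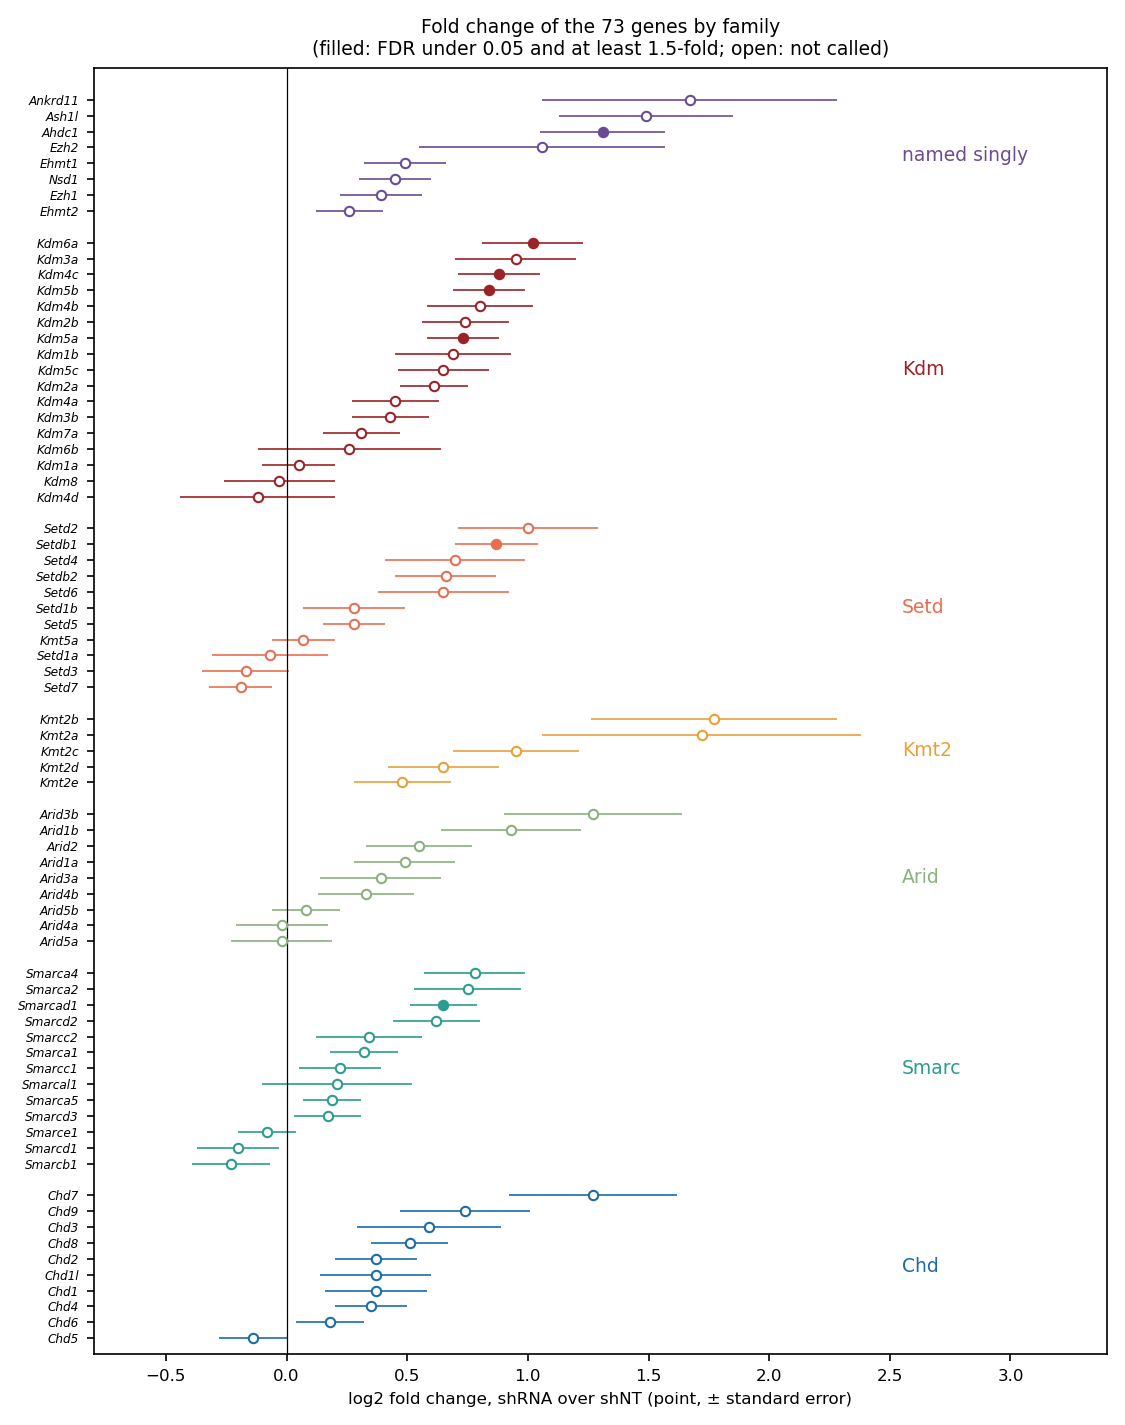
Log2 fold change of shRNA over shNT with its standard error for each of the 73 genes, grouped by family; filled points mark the 7 called genes. Points lie mostly to the right of 0, from Smarcb1 at -0.23 to Kmt2b at 1.77, and the Kdm family holds 4 of the 7 filled points.

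The H3K4 demethylases held 2 of the called genes, Kdm5b and Kdm5a, among 5. Kdm5b, which removes methyl groups from H3K4, was at 45.3, 38.7, 42.0, 31.0 and 39.3 CPM in shNT samples 1 to 5 and at 66.9, 60.9, 68.1 and 85.2 CPM in shRNA samples 1 to 4. All 4 shRNA samples exceeded all 5 controls, with shRNA 4 highest. Kdm5b (chromosome 1, 136456748 to 136529454 in mm9) rose 1.79-fold, a log2 change of 0.84 ± 0.15 (SE) with an FDR of 0.0403. Its paralog Kdm5a was at 44.1, 47.1, 32.7, 39.4 and 38.0 CPM in shNT and at 70.6, 56.3, 59.6 and 80.4 CPM in shRNA samples. The groups did not overlap, and shRNA 1 and shRNA 4 were the highest samples. Kdm5a rose 1.66-fold (log2 0.73 ± 0.15, FDR 0.0433). The ratio of Kdm5b to Kdm5a per kb of exon was 1.81 ± 0.365 (SD, n = 5) in shNT and 1.93 ± 0.150 (n = 4) in shRNA samples, so the balance of the paralogs differed by less than its spread. The X-linked paralog Kdm5c ran from 21.6 to 40.2 CPM in shNT and from 38.5 to 50.1 CPM in shRNA samples, and overlapped through shNT 3 alone (log2 0.65 ± 0.19, FDR 0.0654). Of the 2 flavin-dependent demethylases, Kdm1b was at log2 0.69 ± 0.24 (FDR 0.0838). Kdm1a, the most abundant demethylase per kb, was at 83.7 ± 14.1 CPM in shNT and 86.7 ± 9.72 CPM in shRNA samples (log2 0.05 ± 0.15, FDR 0.837).

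The opposing H3K4 methyltransferases held 0 called genes of 8 by the quasi-likelihood test, with 5 at an unadjusted p under 0.05, and 4 called by the likelihood ratio test and 2 by DESeq2. Each of the 5 Kmt2 genes had a positive fold change with an unadjusted p under 0.05, and their median log2 change was 0.95, the highest of the families. Kmt2b was at 24.3, 33.8, 10.4, 7.16 and 9.60 CPM in shNT and at 109, 33.5, 60.9 and 27.5 CPM in shRNA samples. shNT 1 and shNT 2 were well above the other controls, and shNT 2 reached the level of shRNA 2. The log2 change of Kmt2b was 1.77 ± 0.51 (FDR 0.0654). Kmt2a was at 395, 258, 64.9, 43.7 and 60.4 CPM in shNT and at 933, 364, 648 and 216 CPM in shRNA samples, with the same 2 controls high (log2 1.72 ± 0.66, FDR 0.102). Kmt2a and Kmt2b had, with Ankrd11 and Ezh2, the largest standard errors of the 73 genes. Kmt2c (log2 0.95 ± 0.26, FDR 0.0630) and Kmt2d (0.65 ± 0.23, FDR 0.0859) catalyse H3K4 monomethylation at enhancers, and Kmt2e, which is not known to methylate H3K4 itself, was at 0.48 ± 0.20 (FDR 0.114). Kmt2e shares 11.7% of its exon bases with Srpk2, and reads there cannot be assigned without strand. The other 3 members of the group had small changes: Setd1b at log2 0.28 ± 0.21, Setd1a at -0.07 ± 0.24 and Setd7 at -0.19 ± 0.13. Setd1a shares 51.8% of its exon bases with Hsd3b7, so its level is uncertain.

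**Figure D3:**
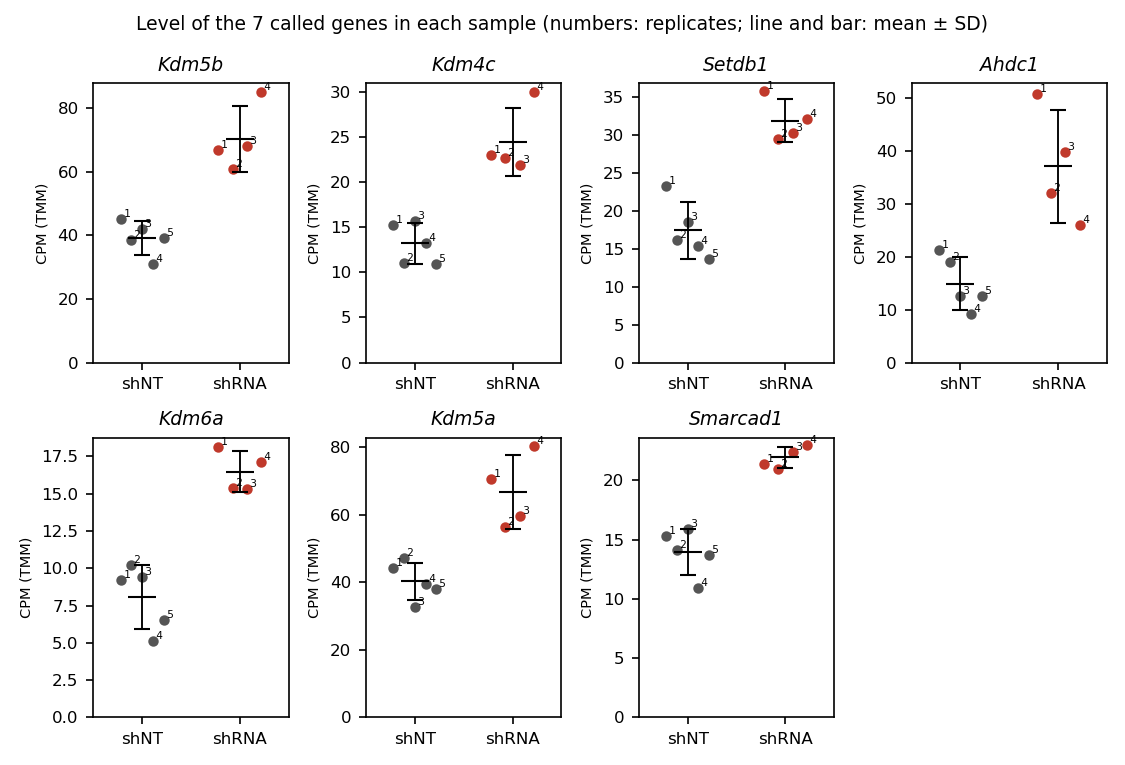
Level of each called gene in every sample in TMM-normalized CPM from 0, with the replicate number beside each point and the mean ± SD as a line and bar (5 shNT, 4 shRNA samples). In all 7 panels each shRNA sample is above each shNT sample, with the narrowest gap in CPM for Ahdc1, between shNT 1 at 21.3 and shRNA 4 at 25.9 CPM.

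Among the H3K9 enzymes, 1 methyltransferase and 1 demethylase were called. Setdb1, which trimethylates H3K9 and silences retroelements, was at 23.3, 16.2, 18.5, 15.4 and 13.6 CPM in shNT and at 35.7, 29.4, 30.2 and 32.1 CPM in shRNA samples. The groups were separate, with shNT 1 the highest control. Setdb1 (chromosome 3, 95127447 to 95161124 in mm9) rose 1.83-fold (log2 0.87 ± 0.17, FDR 0.0403). Setdb2 was low, at 2.67 to 3.91 CPM in shNT and 4.59 to 6.27 CPM in shRNA samples (log2 0.66 ± 0.21, FDR 0.0723). The dimethylating pair Ehmt1 (log2 0.49 ± 0.17, FDR 0.0870) and Ehmt2 (0.26 ± 0.14, FDR 0.206) did not pass the test. On the removing side, Kdm4c was at 15.2, 11.0, 15.7, 13.3 and 10.9 CPM in shNT and at 23.0, 22.7, 21.9 and 30.0 CPM in shRNA samples. All shRNA samples were above all controls, and shRNA 4 stood apart from the other 3. Kdm4c (chromosome 4, 73888401 to 74051764 in mm9) rose 1.84-fold (log2 0.88 ± 0.17, FDR 0.0403). The other 6 H3K9 demethylases ran from Kdm4d, at 1.92 ± 0.633 CPM in shNT and 1.77 ± 0.334 CPM in shRNA samples, to Kdm3a, at log2 0.95 ± 0.25 (FDR 0.0621). Kdm4b also had groups that did not overlap (22.3 to 50.3 and 54.0 to 69.3 CPM, log2 0.80 ± 0.22, FDR 0.0643).

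For H3K27, the demethylase Kdm6a was called and the methyltransferases were not. Kdm6a, known as Utx, was at 9.21, 10.2, 9.40, 5.14 and 6.52 CPM in shNT and at 18.1, 15.4, 15.3 and 17.1 CPM in shRNA samples. shNT 4 and shNT 5 were the lowest, and no shNT sample reached the shRNA range. Kdm6a (X, 17739701 to 17857062 in mm9) rose 2.03-fold (log2 1.02 ± 0.21, FDR 0.0417). Its inducible paralog Kdm6b ran from 3.19 to 10.3 CPM in shNT and from 3.98 to 11.5 CPM in shRNA samples (log2 0.26 ± 0.38, and -0.11 without shRNA 4). Ezh1, the Polycomb methyltransferase of postmitotic cells, was at 61.8 ± 14.4 CPM in shNT and 81.1 ± 6.42 CPM in shRNA samples (log2 0.39 ± 0.17, FDR 0.139). Ezh2 was at 0.925, 3.67, 0.823, 1.26 and 0.753 CPM in shNT and at 3.92, 1.78, 2.06 and 4.56 CPM in shRNA samples. shNT 2 was higher than 2 of the shRNA samples, and the samples with the highest Ezh2 (shRNA 4, shRNA 1 and shNT 2) were also those with the largest share of reads outside exons (27.2%, 19.8% and 18.6%). The log2 change of Ezh2 was 1.06 ± 0.51 (FDR 0.163), and 0.37 (FDR 0.475) with the percentage of such reads as a covariate. Per kb, Ezh1 exceeded Ezh2 in every sample, by 10.6 to 78.5 times in shNT and 15.3 to 41.1 times in shRNA samples.

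Kdm6a and Kdm5c are known to escape X inactivation, so transcripts of sex-linked genes are given beside them. shNT 1 held 3 Xist counts and shNT 5 held between 0 and 4 counts of each of 4 Y-linked genes, whereas the other 7 samples held both kinds of transcript, with at least 324 counts of Xist and at least 51 counts of each Y-linked gene. The counts of shNT 1 and shNT 5 do not match pools of both sexes. In the 7 samples with both, the log2 change was 0.89 for Kdm6a (FDR 0.157), 0.58 for Kdm5c (FDR 0.211) and 0.18 for Smarca1, an ISWI ATPase on X (FDR 0.582). With all samples Smarca1 was at 0.32 ± 0.14 (FDR 0.143). The lowest FDR of the 73 genes in that fit was 0.147, and 60 of them were positive. The part of the sex mix in these levels was not tested further.

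The 3 H3K36 methyltransferases all had an unadjusted p under 0.05. Ash1l was at 154, 143, 78.1, 61.4 and 67.1 CPM in shNT and at 462, 211, 295 and 161 CPM in shRNA samples. The groups did not overlap, but shNT 1 and shRNA 4 were close. Its log2 change was 1.49 ± 0.36 and its FDR of 0.0544 was just over the threshold. Setd2, which trimethylates H3K36 behind RNA polymerase II, was at 54.7, 41.8, 25.5, 19.9 and 20.1 CPM in shNT and at 70.7, 56.6, 72.0 and 60.6 CPM in shRNA samples, again without overlap (log2 1.00 ± 0.29, FDR 0.0651). Nsd1 was at 70.6 ± 11.0 CPM in shNT and 96.8 ± 14 CPM in shRNA samples (log2 0.45 ± 0.15, FDR 0.0794). Each gene was given a single role here, and the Kdm4 genes, with the called Kdm4c, were placed with the H3K9 demethylases only. Of the genes placed with the H3K36 demethylases, Kdm2a (log2 0.61 ± 0.14, FDR 0.0504) and Kdm2b (0.74 ± 0.18, FDR 0.0555) missed the threshold narrowly, each with groups that did not overlap. Kdm8 was at log2 -0.03 ± 0.23. The 5 remaining Setd proteins had log2 changes from -0.17 for Setd3 to 0.70 for Setd4, with 0 called by any of these 3 tests and 2 at an unadjusted p under 0.05. Setd3 was at 153 ± 17 CPM in shNT and 136 ± 33.6 CPM in shRNA samples, and Kmt5a, the H4K20 monomethyltransferase, was at log2 0.07 ± 0.13.

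Among the remodellers, 1 gene of 10 Chd, 13 Smarc and 9 Arid genes was called. Smarcad1, an ATPase that helps restore silent chromatin after replication, was at 15.3, 14.1, 15.9, 10.9 and 13.7 CPM in shNT and at 21.4, 21.0, 22.4 and 23.0 CPM in shRNA samples. The 4 shRNA samples lay close together and above all controls. Smarcad1 (chromosome 6, 64992661 to 65066044 in mm9) rose 1.57-fold (log2 0.65 ± 0.14, FDR 0.0481). The alternative SWI/SNF ATPases Smarca4 (log2 0.78 ± 0.21, FDR 0.0630) and Smarca2 (0.75 ± 0.22, FDR 0.0655) had nearly equal changes. Their ratio per kb was 1.45 ± 0.0348 in shNT and 1.42 ± 0.0534 in shRNA samples, although Smarca2 itself ran from 126 to 239 CPM among controls. The core subunits Smarcb1 (log2 -0.23 ± 0.16, FDR 0.304), Smarce1 (-0.08 ± 0.12) and Smarcd1 (-0.20 ± 0.17) had negative changes that did not pass the test, and Smarcc1 (0.22 ± 0.17) and Smarcc2 (0.34 ± 0.22) small positive ones. The ISWI ATPase Smarca5 was at 0.19 ± 0.12. Smarcd3 shares 54.3% of its exon bases with other genes and is uncertain.

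The Chd genes had a median log2 change of 0.37, which was 0.18 without shRNA 4, 0.16 with the percentage of reads outside exons as a covariate and 0.12 in the samples named YTa31 only. The quasi-likelihood test called 0 of 10, with 4 at an unadjusted p under 0.05, and the likelihood ratio test and DESeq2 called 1 each. Chd7, mutated in CHARGE syndrome, was at 16.5, 23.3, 8.44, 12.3 and 10.3 CPM in shNT and at 35.3, 19.2, 25.6 and 56.7 CPM in shRNA samples. shRNA 2 was below shNT 2, and shRNA 4 was the highest (log2 1.27 ± 0.35, FDR 0.0630). With the percentage of reads outside exons as a covariate the log2 change of Chd7 was 0.63. Chd8, a gene linked to autism, had groups that did not overlap, at 18.4 to 27.7 CPM in shNT and 28.7 to 36.2 CPM in shRNA samples (log2 0.51 ± 0.16, FDR 0.0688). In the fit that removes the trend with exon length, described below, the log2 change of Chd8 was 0.00 (FDR 0.991). Of the NuRD ATPases, Chd3 was at log2 0.59 ± 0.30 (FDR 0.181), Chd4 at log2 0.35 ± 0.15 (FDR 0.127) and the neuronal paralog Chd5 at -0.14 ± 0.14 (FDR 0.504), the lowest of the family. The ratio of Chd5 to Chd4 per kb ran from 0.880 to 1.11 in shNT and from 0.536 to 0.758 in shRNA samples, without overlap. It was 1 of 12 ratios of paralogs computed. No test was made of it.

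The Arid genes had a median log2 change of 0.39. By the quasi-likelihood test 0 of 9 were called, with 4 at an unadjusted p under 0.05, and the likelihood ratio test and DESeq2 called 2 each. Arid1b and Arid1a are alternative subunits of the canonical SWI/SNF complex. Arid1b was at 74.8, 56.4, 47.0, 29.8 and 28.2 CPM in shNT and at 78.0, 81.4, 126 and 76.3 CPM in shRNA samples. The groups did not overlap, by a narrow gap between shNT 1 and shRNA 4 (log2 0.93 ± 0.29, FDR 0.0686). Arid1a was at log2 0.49 ± 0.21 (FDR 0.136). The ratio of Arid1a to Arid1b per kb was 1.17 to 1.98 in shNT and 0.886 to 1.04 in shRNA samples, also without overlap and also untested. Arid3b was low, at 1.97 to 3.63 CPM in shNT and 3.45 to 11.4 CPM in shRNA samples (log2 1.27 ± 0.37, FDR 0.0654), with shRNA 4 highest. Its log2 change was 0.82 without shRNA 4 and 0.51 with the percentage of reads outside exons as a covariate. Arid4a (41.0 ± 9.32 CPM in shNT, 40.5 ± 7.72 in shRNA samples) and Arid5a (21.8 ± 4.96 and 21.5 ± 5.35 CPM) were near 0 on the log2 scale, each at -0.02.

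Ahdc1 and Ankrd11 had the largest changes outside the Kmt2 family together with Ash1l. Ahdc1, an AT-hook protein mutated in Xia-Gibbs syndrome, was at 21.3, 19.0, 12.5, 9.23 and 12.6 CPM in shNT and at 50.7, 32.0, 39.7 and 25.9 CPM in shRNA samples. The groups did not overlap. Ahdc1 (chromosome 4, 132567175 to 132634025 in mm9) rose 2.48-fold (log2 1.31 ± 0.26, FDR 0.0414), the largest change among the called genes. Ankrd11, mutated in KBG syndrome, was at 1009, 691, 191, 146 and 188 CPM in shNT and at 2141, 1007, 1972 and 554 CPM in shRNA samples. shNT 1 and shNT 2 exceeded shRNA 4, and the log2 change was 1.67 ± 0.61 with an FDR of 0.0916.

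Ankrd11, Kmt2a, Kmt2b, Ash1l and Ahdc1 shared an order of samples: shNT 1 and shNT 2 were the highest controls and shRNA 1 and shRNA 3 the highest shRNA samples for each of the 5, which were set side by side after their values were seen. shRNA 4, the highest shRNA sample for 35 of the 73 genes, was the lowest for these 5. Ankrd11 alone made up 11.4% ± 7.51 of the summed CPM of the 73 genes in shNT (SD, n = 5) and 22.6% ± 8.44 in shRNA samples (n = 4). That sum was 3485 ± 855 CPM in shNT and 5939 ± 1261 CPM in shRNA samples. Without Ankrd11, Kmt2a and Ash1l it was 2776 ± 311 and 3698 ± 163 CPM, and ran from 2469 to 3257 in shNT and from 3472 to 3860 in shRNA samples. Among controls, the highest level was over 2 times the lowest for 19 of the 73 genes, from Kmt2c at 2.09 times to Kmt2a at 9.04 times.

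**Figure D4:**
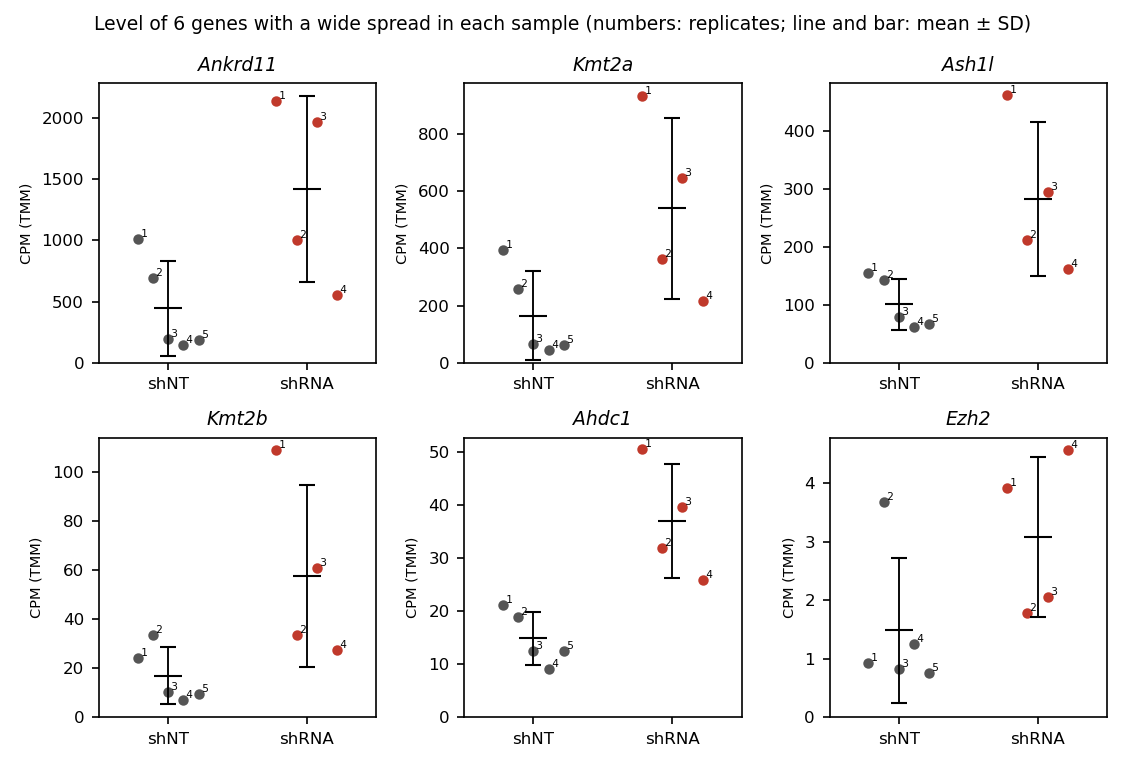
Level in each sample, in TMM-normalized CPM from 0, of Ankrd11, Kmt2a, Ash1l, Kmt2b, Ahdc1 and Ezh2, with replicate numbers and the mean ± SD. For the first 5 genes shNT 1 and 2 are the highest controls and shRNA 4 the lowest shRNA sample, whereas shRNA 4 is the highest for Ezh2 at 4.56 CPM.

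The joined exons of these genes are long, and fold change rose with exon length over the whole table. The median exon length was 7.49 kb for the 73 genes and 3.62 kb for all genes tested, and 49 of the 73 were in the longest of 5 equal bins of genes by length (6.16 to 117 kb). In that bin the median log2 change was 0.45 over all genes and 0.55 over the 49. There 5.08% of genes were called higher against 6 of the 49, and 19.8% had groups that did not overlap with shRNA higher against 13 of the 49. Spearman's rho between log2 change and exon length was 0.406 across 15047 genes and 0.321 across the 73, given as a description since genes of the same libraries are not independent replicates.

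With offsets that remove the trend with exon length in each sample, the median log2 change of the 73 genes was 0.15, with that of all genes at -0.00, and 44 of the 73 were positive. No gene was called in that fit, and the lowest FDR was 0.0852, that of Kdm4c. Of the 73, 22 had an unadjusted p under 0.05 with shRNA higher and 6 with shRNA lower. Over all 15069 genes, 2189 were higher and 2117 lower at that threshold, and 7513 had a positive change. The family medians there were 0.24 for the Kdm genes, 0.27 for the Kmt2 genes, 0.44 for the genes named singly, -0.02 for Chd, -0.01 for Smarc, 0.02 for Arid and -0.07 for Setd genes, and no difference between families was tested. In this fit 20 of the 73 genes changed sign, among them Kmt2d (-0.04), Nsd1 (-0.08), Smarca5 (-0.19) and Setd1b (-0.20). The length-adjusted log2 changes of the called genes were 0.96 for Ahdc1, 0.66 for Kdm6a, 0.61 for Kdm4c, 0.56 for Setdb1, 0.46 for Kdm5b, 0.33 for Smarcad1 and 0.15 for Kdm5a. When the fit took the percentage of reads outside exons as a covariate, the median log2 change of the 73 genes was 0.35, 65 were positive and the lowest FDR was 0.0785.

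**Figure D5:**
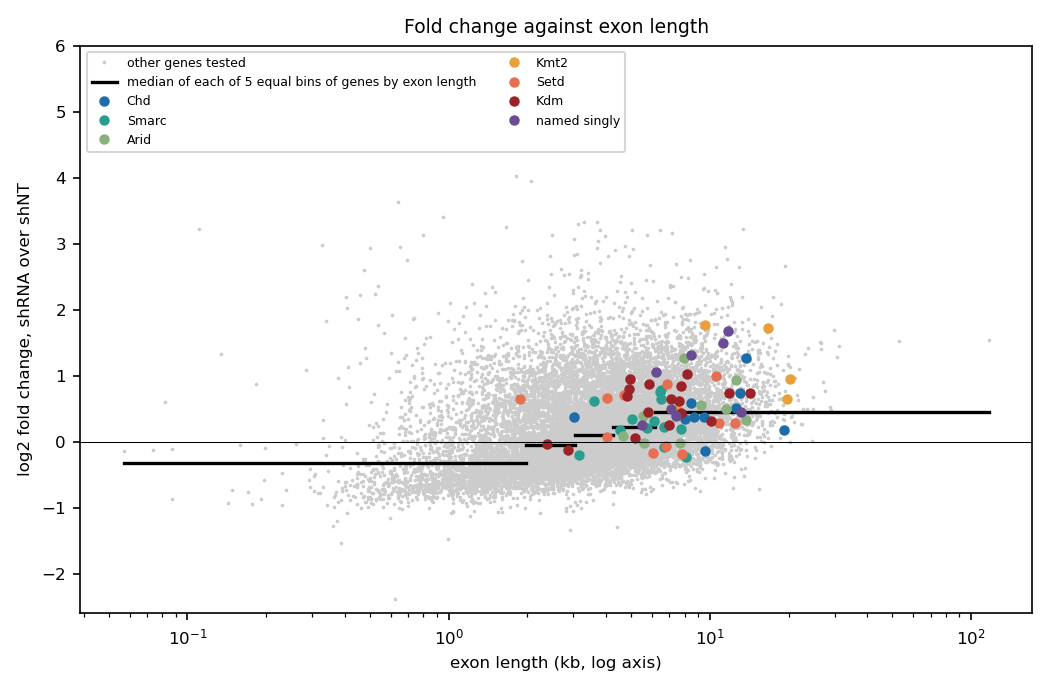
Log2 fold change of shRNA over shNT against exon length in kb (log axis) for all genes tested (grey) and the 73 genes (coloured by family), with black lines at the median of each of 5 equal bins of genes by exon length. The medians rise from -0.32 in the shortest bin to 0.45 in the longest, where 49 of the 73 genes lie.

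Other chromatin genes gave a smaller difference. Of 139 tested genes in 10 further lists (partners of the complexes, Polycomb proteins, further methylation enzymes, acetylation, deacetylation and DNA methylation), 2 were called higher (1.44%) and 0 lower, the median log2 change was 0.23 and 14.4% had groups that did not overlap with shRNA higher. The 2 were Cecr2, a partner of ISWI ATPases (log2 1.81 ± 0.36, FDR 0.0414), and Kmt5b, an H4K20 methyltransferase (0.66 ± 0.14, FDR 0.0433). Partners of the enzymes above had medians near 0: 0.07 for 15 SWI/SNF subunits without a Smarc or Arid name, 0.01 for 13 subunits and partners of the COMPASS complexes that carry the Kmt2 enzymes, and 0.01 for 11 NuRD subunits, which include the deacetylases Hdac1 and Hdac2. Dpy30, a shared COMPASS subunit, was at log2 -0.68 ± 0.19 (FDR 0.0642). The median exon lengths of these 3 lists were 4.52, 5.02 and 3.44 kb, against 7.49 kb for the 73 genes. With exon length offsets the medians of these 3 lists were -0.12, -0.10 and -0.03. The 24 Polycomb genes had a median of 0.21, the 16 ISWI and INO80 subunits 0.52 and the 12 DNA methylation genes 0.48. Their median exon lengths were 5.12, 7.27 and 8.90 kb. With exon length offsets these medians were 0.06, 0.14 and 0.14, against 0.15 for the 73 genes. The 7 further histone demethylases had a median of 0.46 (0.09 with offsets). The 19 further histone methyltransferases had a median of 0.07 (-0.15 with offsets). For 10 acetyltransferases it was 0.21 (0.10 with offsets) and for 12 deacetylases 0.24 (-0.01 with offsets). Over all 139 genes the median exon length was 5.08 kb and the median with offsets 0.01. The difference between these lists and the 73 genes was not tested.

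The promoters of the set can be compared with all mouse promoters in RefSeq (GRCm38.p6), in windows of 250 bases before each start. The table held 71 promoters of 55 of the 73 genes. The promoters of all 27025 genes served as background, which was not limited to the 15069 genes tested here. A comparison with expressed genes only was not made. The GC box (GGGCGG, both strands), bound by Sp1 family factors, was in 67.6% of these windows and in 32.7% of all 32851. TATAAA was in 2.82% and 12.4%, CCAAT in 36.6% and 33.8%, CACGTG in 5.63% and 6.02%, and TGACTCA in 5.63% and 4.46%. The CRE (TGACGTCA) was in 0% and 1.55%, which says only that these letters are not in these windows. The median GC content was 65.6% against 52.4%, and the ratio of observed to expected CpG 0.842 against 0.373. The promoters of called genes with a single start are printed to show where the GC box falls. All are 5′ to 3′ on the strand of the gene and end at the base before the start, and capitals mark the GC box on either strand. They are Kdm5b (chr1:134559928-134560177, plus strand), Setdb1 (chr3:95357203-95357452, minus strand), Ahdc1 (chr4:133011256-133011505, plus strand) and Kdm6a (chrX:18162325-18162574, plus strand).
Kdm5b: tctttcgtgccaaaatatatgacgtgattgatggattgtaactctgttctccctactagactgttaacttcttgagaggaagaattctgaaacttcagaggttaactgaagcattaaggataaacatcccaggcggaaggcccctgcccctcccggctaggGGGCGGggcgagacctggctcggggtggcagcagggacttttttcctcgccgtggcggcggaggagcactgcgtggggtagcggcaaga
Setdb1: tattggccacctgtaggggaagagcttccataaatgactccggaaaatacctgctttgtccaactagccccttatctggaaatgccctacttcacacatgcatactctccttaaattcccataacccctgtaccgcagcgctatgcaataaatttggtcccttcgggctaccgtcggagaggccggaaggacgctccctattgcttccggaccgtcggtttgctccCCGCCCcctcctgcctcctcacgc
Ahdc1: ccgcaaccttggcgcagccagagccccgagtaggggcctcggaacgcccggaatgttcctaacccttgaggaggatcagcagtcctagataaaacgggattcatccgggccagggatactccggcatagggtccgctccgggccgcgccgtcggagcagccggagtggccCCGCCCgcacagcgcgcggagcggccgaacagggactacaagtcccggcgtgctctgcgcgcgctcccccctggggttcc
Kdm6a: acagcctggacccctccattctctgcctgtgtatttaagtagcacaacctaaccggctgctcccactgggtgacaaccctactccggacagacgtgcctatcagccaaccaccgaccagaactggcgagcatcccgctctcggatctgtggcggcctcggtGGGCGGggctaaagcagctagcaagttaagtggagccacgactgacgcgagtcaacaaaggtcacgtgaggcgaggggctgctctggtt
Each of the 4 windows held 1 GC box. Their GC content was 54.4% for Kdm5b and for Setdb1, 59.6% for Kdm6a and 69.2% for Ahdc1, and the ratio of observed to expected CpG was 0.72, 0.76, 0.68 and 0.94 in that order of Kdm5b, Setdb1, Kdm6a and Ahdc1.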

How the data were processed

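RNA sequencing measured ribosome-associated RNA in 5 shNT and 4 shRNA samples. The authors aligned 50-base reads to the mm9 transcriptome with STAR (version not given in the sources used here), counted reads per gene without strand with HTSeq 0.6.0 and deposited raw counts. Rows that name no gene took 22% to 34.5% of alignments and were left out. Names, positions and exon lengths came from GENCODE (same build), which named 37205 of 37620 identifiers. Kmt2a to Kmt2e, Kmt5a, Kdm7a and Kdm8 carry older names there.

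In R 4.3.3, counts were normalized with TMM and fitted with edgeR 4.0.16 (quasi-likelihood, condition only; 22551 genes under 1 CPM in every sample removed; SE from the log2 change and the F statistic). Alternatives used limma 3.58.1 and DESeq2 1.42.0. Marker levels are log2 TMM-normalized CPM with a small constant added, averaged over a list as differences from the shNT mean. Log2 CPM with a prior count of 2 served the exon length trend and the correlations of replicates. The biological coefficient of variation, the replicate spread beyond counting error, was 0.303 over all genes. Counting error was not compared with it for each gene and weighs more at low counts. Replicate numbers did not pair samples (correlations -0.267, -0.641, 0.486 and -0.181). No 2 samples of a group agreed within sampling noise. The labels do not say that samples came from separate cohorts, so p-values measure the spread between these pools.

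Genes named were the called ones, those named singly, the X-linked ones and, per family, the highest level per kb and the highest and lowest fold change; further genes were chosen after their values were seen. The members and lists were chosen with earlier results of these data known.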

Additional observations from a re-analysis of the deposited data

Results flagged for a closer look

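Of 70 groups of values looked at (33 named genes with 2 groups each, plus library measures), 3 held a sample far from the rest, where chance alone gives about 3.50. The first was Kdm4c in shRNA 4, at 30.0 CPM against 21.9 to 23.0 CPM in the other shRNA samples; without that sample its log2 change was 0.75 with an FDR of 0.0442 (edgeR's quasi-likelihood test). The second was Ezh2 in shNT 2, at 3.67 CPM against 0.753 to 1.26 CPM in the other controls. The third was the share of reads outside exons in shNT 2, at 18.6% against 9.77% to 11.3% in the other controls.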

How the results depend on the processing

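Of 825 values of named genes under the alternatives, 659 kept their direction and their side of the threshold. No gene of the 73 was called lower in any alternative. The genes called higher, the genes called lower and, of the 73, those called higher numbered 1688, 542 and 25 by the likelihood ratio test, 1659, 534 and 25 by the exact test of edgeR, 1519, 844 and 21 by DESeq2 and 2301, 618 and 29 by limma voom. They were all 0 with library size only, with upper quartile scaling, in the YTa31 samples only, with reads outside exons as a covariate, with exon length offsets and (chosen after seeing the data) in samples with both Xist and Y-linked transcripts. Without a filter the table held 501 and 14. DESeq2 size factors left 1 gene lower, the set of sample names as a term 1, and CPM of at least 1 in at least 4 samples 8. Replicate numbers did not pair the samples; with the replicate block 29, 0 and 0 genes were called, and shNT 1 to 4 correlated best with shRNA 4, 4, 2 and 2. Without both shNT 2 and shRNA 4 the numbers were 717, 4 and 14. With single samples left out they ran from 0 to 1007, from 0 to 410 and from 0 to 20.

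The median log2 change of the 73 genes was 0.26 in YTa31 samples only (Kmt2 genes 0.51, genes named singly 0.38) and 0.15 with exon length offsets. Those offsets gave -0.02 for Chd, -0.01 for Smarc, 0.02 for Arid, 0.27 for Kmt2, -0.07 for Setd, 0.24 for Kdm genes and 0.44 for the genes named singly, whose median was also 0.44 with reads outside exons as a covariate, 0.98 without shNT 2 and shRNA 4, 0.47 in samples with both Xist and Y-linked transcripts and from 0.56 to 0.97 with single samples left out. With samples left out singly the median ran from 0.18 (without shRNA 4) to 0.45 for Chd, 0.11 (without shRNA 3) to 0.34 for Smarc, 0.25 (without shNT 4) to 0.48 for Arid and 0.18 (without shNT 4) to 0.39 for Setd genes. Over all 73 genes, 20 changed sign with exon length offsets, 7 with the covariate, 3 in YTa31 samples only and 0 to 3 with single samples left out; Kdm6b was at -0.12, -0.45 and -0.20 in the first 3 of these, Kdm8 at 0.03, 0.25 and 0.13, and Smarcd1 at 0.04 with the covariate. Of the genes named by the rule, exon length offsets gave Ehmt2 -0.00, Nsd1 -0.08, Chd4 -0.05 and Kdm1a -0.18; the covariate gave Setd3 0.10 and Kdm4d 0.24; Kdm1a was at -0.05 in samples with both kinds of transcript. Arid4a was at 0.05 with library size only, 0.04 with the block and 0.01 with the stricter filter and with the name set. Arid5a was at 0.07 with library size only and 0.01 with upper quartile scaling, the stricter filter and the name set. With samples left out Arid4a ran from -0.19 to 0.11, Arid5a from -0.27 to 0.05 and Kdm1a from -0.06 to 0.09. The cause of these shifts was not tested. The names YTa31 and YTa32 are not said to mark batches, and 1 shRNA sample carries YTa32, so no value within that set was computed.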
